A study of Homo sapiens with 4 samples.

Results

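The miR-532, miR-500 and miR-660 cluster is a run of miRNA hairpins on the short arm of the human X chromosome. Its mature miRNAs were counted in small RNA of the hepatoma line Hep3B, of the hepatoma line Huh7, and of Hep3B-C and Huh7-C, the hepatic cancer stem cells (HCSCs) that the study derived from these hepatocellular carcinoma (HCC) cells. There was 1 library per group and no replicates. The labels give no treatment, time or genotype for any group, how the HCSCs were enriched is not given in the sources used here, and each HCSC line comes from 1 parent line. A difference between 2 libraries is therefore not a tested difference between cell states. The cluster was taken as 10 of the 1733 mature miRNAs counted in each library, chosen by name, with earlier results of these data known: hsa-miR-532-5p, hsa-miR-532-3p, hsa-miR-188-5p, hsa-miR-500a, hsa-miR-362-5p, hsa-miR-362-3p, hsa-miR-501-5p, hsa-miR-501-3p, hsa-miR-660 and hsa-miR-502-3p. All 10 had at least 1 count in every library.

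A miRNA hairpin is cut by Drosha and then Dicer into a short duplex, of which 1 strand, from the 5p or the 3p arm, is usually kept by an Argonaute protein. The seed, bases 2 to 8 of that strand, pairs with target mRNAs. Hairpins that lie close together on the same strand can come from 1 primary transcript, yet their mature strands may build up to very different levels. Several members have been studied in liver cancer: miR-500 was described as a serum marker of HCC, hsa-miR-362-5p and hsa-miR-501-5p were reported to target CYLD, a deubiquitinase that restrains NF-kB signaling, and hsa-miR-188-5p was reported to restrain HCC growth.

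The hairpins lie on the plus strand at chrX:50003148-50014683 of GRCh38, a stretch of 11536 bases, in the order MIR532, MIR188, MIR500A, MIR362, MIR501, MIR500B, MIR660 and MIR502. The stretch is within CLCN5, the gene of an endosomal chloride/proton exchanger, which GENCODE places at chrX:49922615-50099235. Each of the 7 hairpins with a RefSeq hairpin entry is spanned by 3 protein-coding CLCN5 transcripts and overlaps an exon of 0 of them, so it is intronic. The mature sequences show how alike the members are, which bears on how their reads could be told apart. They are RefSeq's (GRCh38.p14, plus strand), which held 9 of the 10 members by name, and are given 5′ to 3′ with the seed in capitals. The first come from the 5p arms.
hsa-miR-532-5p: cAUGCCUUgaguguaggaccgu
hsa-miR-188-5p: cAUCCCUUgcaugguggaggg
hsa-miR-500a: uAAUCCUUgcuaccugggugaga
hsa-miR-500b: aAUCCUUGcuaccugggu
hsa-miR-362-5p: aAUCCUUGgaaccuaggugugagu
hsa-miR-501-5p: aAUCCUUUgucccugggugaga
The next strands come from the 3p arms.
hsa-miR-500a*: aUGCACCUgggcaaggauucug
hsa-miR-501-3p: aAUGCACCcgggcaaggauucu
hsa-miR-502-3p: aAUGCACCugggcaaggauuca
hsa-miR-362-3p: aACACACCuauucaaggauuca
hsa-miR-532-3p: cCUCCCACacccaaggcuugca
In the MIR532 and MIR500A hairpins the mature strands are in capitals, the 5p strand first.
MIR532: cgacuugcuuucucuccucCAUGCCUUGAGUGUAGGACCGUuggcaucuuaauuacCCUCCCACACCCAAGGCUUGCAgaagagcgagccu
MIR500A: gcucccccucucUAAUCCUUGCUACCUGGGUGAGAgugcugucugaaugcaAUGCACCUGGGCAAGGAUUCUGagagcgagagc

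Among the members, hsa-miR-501-3p and hsa-miR-502-3p share the seed AUGCACC. Over 22 bases they differ by C9U and U22A, counted from 1 at the 5′ end of hsa-miR-501-3p. The other strand of MIR500A, hsa-miR-500a*, starts 1 base further in. It differs from hsa-miR-502-3p by U21A only and from hsa-miR-501-3p by U8C only, over 21 facing bases counted along hsa-miR-500a*. The 18 bases of hsa-miR-500b lie whole within hsa-miR-500a, and the counts of these miRNAs were identical in each library, with 6 in Hep3B and 16 in its HCSCs, and 24 in Huh7 and 12 in its HCSCs. The reads of hsa-miR-500a and hsa-miR-500b are therefore taken as 1 measurement, and how reads were divided among the similar 3p strands was not tested.

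The libraries held between 1739278 (Hep3B) and 5741567 (Huh7) miRNA counts, and miRNA counts made up between 10.4% (Hep3B) and 54.1% (Huh7) of total reads. Levels are given as TPM, counts per 1000000 total reads, and where a direction depends on it also as counts per 1000000 miRNA counts, called the miRNA-scaled level. Marker miRNAs of cell types were also read, which do not check the labels, since they do not name a line. Hepatocyte markers were abundant in all 4 libraries, but hsa-miR-122 had 397 counts in Hep3B. It had 149892 in the HCSCs of Hep3B, and 144814 or more in each library of the Huh7 pair. The 5 blood markers summed to 0.0648 TPM in Hep3B-C, 0.358 in Hep3B, 1.03 in Huh7-C and 75.0 in Huh7, where hsa-miR-451 made 773 of 797 counts, and hsa-miR-144 was at 0 in every library. The 4 mesenchymal markers summed to 25.5 TPM in Hep3B and 111 in Hep3B-C, nearly all hsa-miR-143, and to at most 4.80 TPM in the Huh7 pair. Whether these cultured lines held any blood or mesenchymal cells was not tested, nor was a part of such cells in the cluster's values. In bulk RNA fewer cells of a type and less RNA per cell cannot be told apart.

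Summed over the 10 members, the cluster had 977 counts in Hep3B and 1510 in its HCSCs, against 2436 in Huh7 and 2273 in its HCSCs. It was a small part of the miRNA pool, at 0.0562% of miRNA counts in Hep3B (95% interval 0.0527% to 0.0598%) and 0.0278% in its HCSCs (0.0264% to 0.0292%), and at 0.0424% in Huh7 (0.0408% to 0.0441%) and 0.0562% in its HCSCs (0.0539% to 0.0585%). Its share was lowest in Hep3B-C, and the intervals of Hep3B and Huh7-C overlap.

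The member with the most reads was hsa-miR-532-5p, which in melanoma was reported to target the tumor suppressor RUNX3. It had 668 counts in Hep3B and 940 in its HCSCs, against 1773 in Huh7 and 1687 in its HCSCs. Its level was 39.8 TPM in Hep3B (95% interval of the count 36.8 to 42.9) and 60.9 in its HCSCs (57.0 to 64.9), and 167 in Huh7 (159 to 175) and 157 in its HCSCs (150 to 165). In TPM only Huh7 and Huh7-C overlap, and both stood above the Hep3B libraries, but the miRNA-scaled level was 384 in Hep3B (355 to 414), 173 in its HCSCs (162 to 185), 309 in Huh7 (295 to 324) and 417 in its HCSCs (397 to 437), so that Hep3B then stood above Huh7. Hep3B-C was lowest on the miRNA scale and Hep3B in TPM. It was more abundant than between 86.0% (Hep3B-C) and 89.6% (Huh7-C) of the miRNAs detected in a library, a rank that no scaling changes.

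Of the strands with an intermediate level, hsa-miR-362-5p had 59 counts in Hep3B and 175 in its HCSCs, against 200 in Huh7 and 283 in its HCSCs, or 3.52, 11.3, 18.8 and 26.4 TPM. Its 4 intervals do not overlap, so that each HCSC library stood above its parent in TPM, while on the miRNA scale (33.9, 32.2, 34.8 and 70.0) only Huh7-C stood apart. For hsa-miR-501-3p the counts were 88, 164, 107 and 107 in the same order of libraries, or 5.24, 10.6, 10.1 and 9.99 TPM. Hep3B was lowest in TPM, where the intervals of the other 3 libraries overlapped, but highest on the miRNA scale (50.6, 30.2, 18.6 and 26.5). Hsa-miR-660, reported in lung cancer to target the p53 regulator MDM2, had 74, 130, 152 and 97 counts, or 4.41, 8.42, 14.3 and 9.05 TPM. In TPM Huh7 was highest and Hep3B lowest, but on the miRNA scale (42.5, 23.9, 26.5 and 24.0) Hep3B was highest and the other 3 libraries overlapped. The counts of hsa-miR-502-3p were 44, 38, 93 and 45, or 2.62, 2.46, 8.76 and 4.20 TPM. It stood highest in Huh7 in TPM, but on the miRNA scale (25.3, 7.00, 16.2 and 11.1) Hep3B had the highest level, with an interval that overlapped that of Huh7.

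The other 5 members had few reads, hsa-miR-500a with its counts above among them. In the same order of libraries, hsa-miR-532-3p had 21, 20, 42 and 10 counts. Its interval in Huh7 (2.85 to 5.34 TPM) lay above those of the other libraries, while on the miRNA scale the intervals of Hep3B and Huh7 overlapped. On that scale its interval in Hep3B (7.47 to 18.5) lay above those in Hep3B-C (2.25 to 5.69) and Huh7-C (1.19 to 4.55). The counts of hsa-miR-188-5p were 6, 6, 18 and 13, and those of hsa-miR-362-3p were 2, 2, 14 and 9. For hsa-miR-501-5p they were 9, 19, 13 and 10. At this depth most of these levels cannot be told apart between libraries. In TPM, however, the intervals of hsa-miR-188-5p, hsa-miR-500a and hsa-miR-362-3p in Hep3B lay below those in Huh7, while on the miRNA scale they overlapped. In Hep3B-C those of hsa-miR-188-5p and hsa-miR-362-3p lay below Huh7 in TPM. For hsa-miR-362-3p this held narrowly on the miRNA scale, with an upper limit of 1.3305 in Hep3B-C and a lower limit of 1.3331 in Huh7. The 2 counts of hsa-miR-362-3p in each Hep3B library are under the floor of 3 counts.

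**Figure D1:**
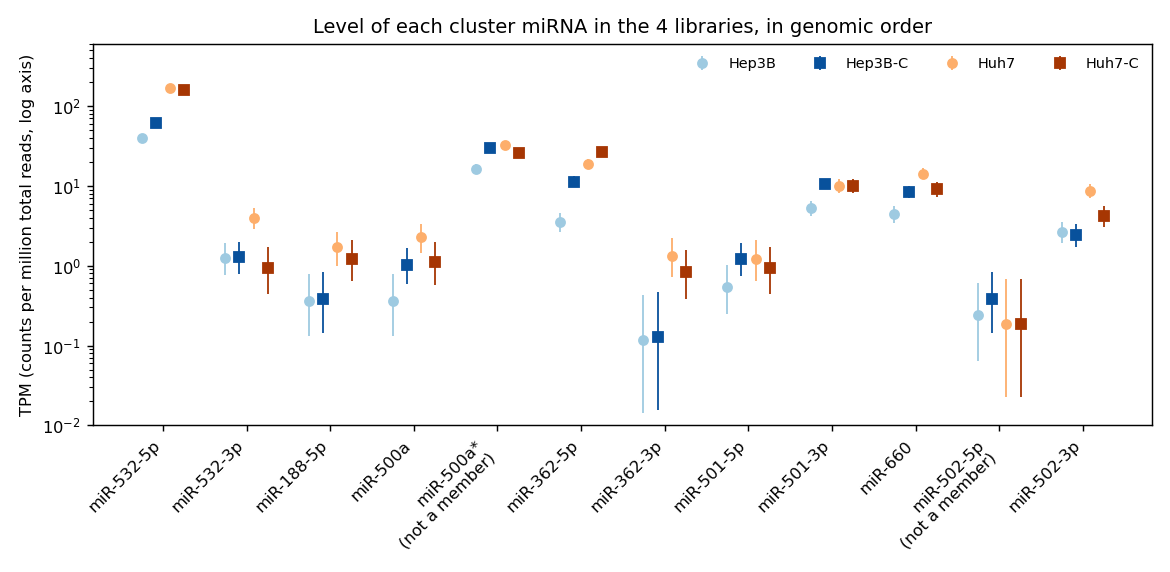
Level of each cluster miRNA in TPM (counts per 1000000 total reads, log axis), in genomic order, with 1 point per library and bars for the 95% Poisson interval of the count; miR-500a* and miR-502-5p are other strands of member hairpins. MiR-532-5p stood highest in every library, at 39.8 to 167 TPM, and miR-362-3p lowest of the members in all libraries but Huh7, at 0.119 to 1.32 TPM.

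The mature strands of the same hairpins that are not among the 10 were also read. Hsa-miR-500a* had 277 counts in Hep3B and 461 in its HCSCs, against 346 in Huh7 and 277 in its HCSCs. In 3 libraries this was more than any member but hsa-miR-532-5p, while among the HCSCs of Huh7 hsa-miR-362-5p had 283. Hsa-miR-502-5p had between 2 and 6 counts. Hsa-miR-188-3p had 0 counts in every library, where the floor of 3 counts is a level of 0.179 TPM in Hep3B and 0.282 TPM in Huh7.

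The arm with more reads differed between hairpins and was the same in all 4 libraries. In MIR532, MIR188 and MIR362 the 5p strand held most reads, and in MIR500A, MIR501 and MIR502 the 3p strand did. The share of an arm does not depend on library size. For MIR500A, whose 5p reads are shared with hsa-miR-500b, the 5p share was 2.12% in Hep3B (95% interval 0.782% to 4.56%) and 3.35% in its HCSCs (1.93% to 5.39%), and 6.49% in Huh7 (4.20% to 9.50%) and 4.15% in its HCSCs (2.16% to 7.14%). All 4 intervals share values, so no order is read from them. For MIR501 the 5p share ranged from 8.55% (Huh7-C) to 10.8% (Huh7), with all intervals overlapping.

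The clearest difference in arm use was in MIR532. Its 3p strand made up 3.05% of the reads of the hairpin in Hep3B (1.90% to 4.62%) and 2.08% in its HCSCs (1.28% to 3.20%), against 2.31% in Huh7 (1.67% to 3.12%) and 0.589% in its HCSCs (0.283% to 1.08%). The Huh7-C interval lies below those of the other libraries, which overlap. In counts this is 10 reads of hsa-miR-532-3p beside 1687 of hsa-miR-532-5p in Huh7-C, against 42 beside 1773 in Huh7.

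**Figure D2:**
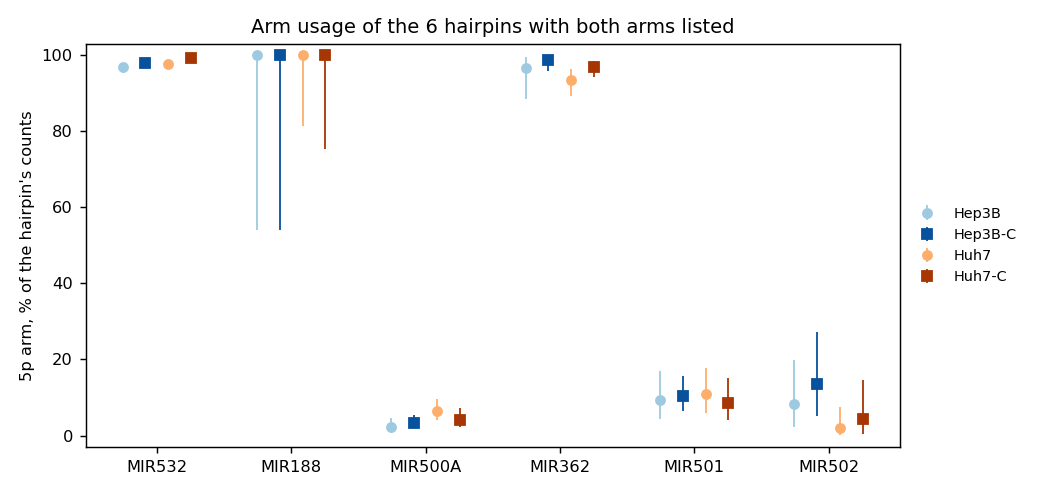
Share of each hairpin's counts on its 5p arm (%), for the 6 hairpins with both arms listed, with 1 point per library and bars for the 95% Clopper-Pearson interval. MIR532, MIR188 and MIR362 sit above 93% in all libraries and MIR500A, MIR501 and MIR502 below 14%, and the wide bars of MIR188 rest on 6 to 18 counts.

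The make-up of the cluster is likewise free of library size. Hsa-miR-532-5p held 68.4% of the counts of the 10 members in Hep3B (65.4% to 71.3%) and 62.3% in its HCSCs (59.8% to 64.7%), against 72.8% in Huh7 (71.0% to 74.5%) and 74.2% in its HCSCs (72.4% to 76.0%). It was lower in Hep3B-C than in the other libraries, and both Huh7 libraries overlapped.

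Relative to the rest of the cluster, hsa-miR-362-5p was higher in both HCSC libraries. Its share was 6.04% in Hep3B (4.63% to 7.72%) and 11.6% in Hep3B-C (10.02% to 13.3%), and 8.21% in Huh7 (7.15% to 9.37%) and 12.5% in Huh7-C (11.1% to 13.9%). The odds of a read being hsa-miR-362-5p rather than one of the other 9 members were 2.04 times as high in Hep3B-C as in Hep3B (95% interval 1.49 to 2.82) and 1.59 times as high in Huh7-C as in Huh7 (1.31 to 1.94). It was the member with an interval above 1 in both pairs. Its own 3p strand, with 2 to 14 counts, was too shallow to compare.

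Hsa-miR-502-3p was lower relative to the rest in both HCSC libraries. Its share was 4.50% in Hep3B (3.29% to 5.999%) and 2.52% in Hep3B-C (1.79% to 3.44%), and 3.82% in Huh7 (3.09% to 4.66%) and 1.98% in Huh7-C (1.45% to 2.64%). The odds ratios were 0.548 (0.342 to 0.872) and 0.509 (0.347 to 0.738). Hsa-miR-501-3p, which shares its seed, had odds ratios of 1.23 (0.931 to 1.64) and 1.08 (0.809 to 1.43), with both intervals spanning 1. Since the sequences of hsa-miR-502-3p, hsa-miR-501-3p and hsa-miR-500a* differ at so few bases, these shares take the authors' division of the reads as given.

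None of the remaining members had an interval clear of 1 in both pairs. Hsa-miR-660 had an odds ratio of 1.15 (0.846 to 1.57) in the Hep3B pair and 0.670 (0.510 to 0.876) in the Huh7 pair. Hsa-miR-532-3p had 0.611 (0.312 to 1.19) and 0.252 (0.112 to 0.512), so only its Huh7 interval lies below 1. The odds ratio of hsa-miR-532-5p was 0.763 (0.641 to 0.908) in the Hep3B pair and 1.08 (0.944 to 1.23) in the Huh7 pair. The other 4 members, hsa-miR-188-5p, hsa-miR-500a, hsa-miR-362-3p and hsa-miR-501-5p, had intervals that span 1 in both pairs. With 1 library per group these odds ratios compare libraries and have no replicate check.

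**Figure D3:**
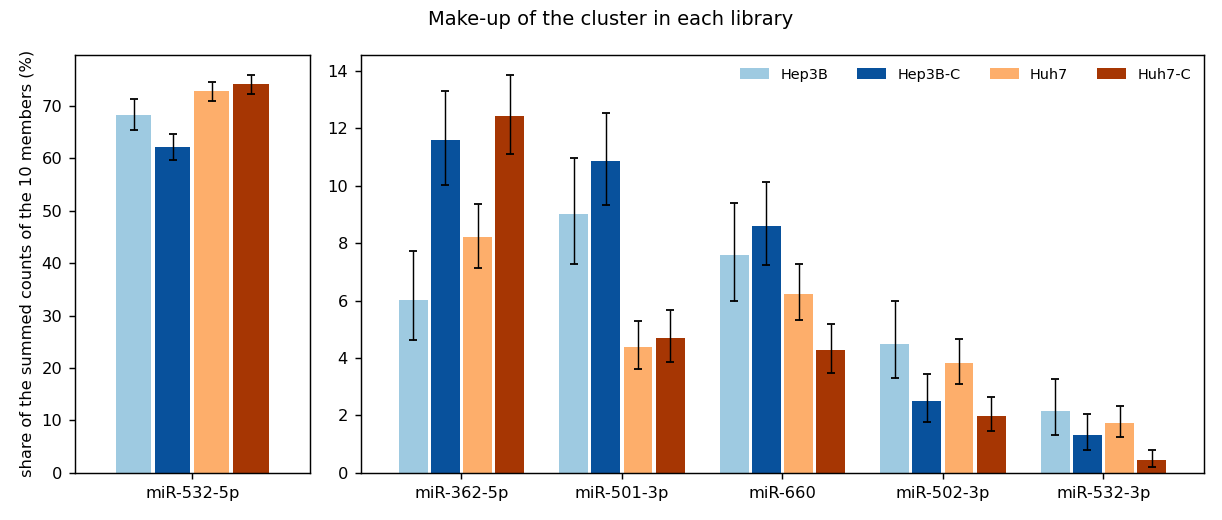
Share of the summed counts of the 10 members (%) held by miR-532-5p (left) and by 5 other members (right, on its own axis), with 1 bar per library and lines for the 95% Clopper-Pearson interval. The miR-362-5p bars of both HCSC libraries (11.6% and 12.5%) stand above those of their parents (6.04% and 8.21%), and the miR-502-3p bars stand below.

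Against all miRNAs, the direction of the cluster rested on the scaling. In the Hep3B pair the summed members went from 58.2 to 97.8 TPM, which is a log2 fold-change of 0.75 (counting interval 0.63 to 0.87), but their miRNA-scaled level went from 562 to 278, or -1.01 (-1.13 to -0.90). In the Huh7 pair they went from 229 to 212 TPM (log2 fold-change -0.11, interval -0.20 to -0.03), but from 424 to 562 in the miRNA-scaled level (0.41, interval 0.32 to 0.49). The median log2 fold-change of all miRNAs of at least 10 counts was itself shifted, to 1.42 over 475 miRNAs of the Hep3B pair and -0.66 over 431 of the Huh7 pair in TPM, and to -0.34 and -0.15 on the miRNA scale. Relative to these medians, which removes the scaling, the summed members stood 0.67 below the median in Hep3B-C (a difference of -0.67) and 0.55 above it in Huh7-C.

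Of the 10 members, 2 were called higher in Hep3B-C and 0 lower in TPM, where a call asks for a change of 2-fold or more and for an adjusted p not above 0.01 in the exact Poisson test. Among all 834 miRNAs tested in this pair 33.0% were called higher and 2.52% lower. Many of these had too few counts to be called. With only the 475 miRNAs of at least 10 counts tested, 277 were called higher and 21 lower, again with 2 members higher and 0 lower. The called members were hsa-miR-362-5p, at a log2 fold-change of 1.69 (1.26 to 2.14) and an adjusted p of 4.64e-16 in this exact test, and hsa-miR-501-3p, with 1.02 (0.64 to 1.41) and an adjusted p of 2.08e-07 in the same exact test. By the miRNA-scaled level 0 members were called higher and 3 lower, with 5.28% and 13.4% of all miRNAs called. These 3 were hsa-miR-532-5p (log2 fold-change -1.15, interval -1.29 to -1.004), hsa-miR-532-3p (-1.71, interval -2.67 to -0.76) and hsa-miR-502-3p (-1.85, interval -2.52 to -1.19). On that scale hsa-miR-362-5p was at -0.07 (-0.51 to 0.38) and hsa-miR-501-3p at -0.74 (-1.13 to -0.35). In TPM 9 of the 10 members had a positive log2 fold-change, and on the miRNA scale 0 did. Of the 475 miRNAs of at least 10 counts, 88.2% were positive in TPM and 40.6% on the miRNA scale. With TMM library sizes 0 members were called higher and 2 lower, beside 8.51% and 9.11% of all miRNAs, and with DESeq2 size factors 0 and 1, beside 11.0% and 7.07%. Of the 8 members with at least 10 counts in either library, 2 stood above the median of all miRNAs and 6 below it. Hsa-miR-362-5p, 0.27 above the median, exceeded 56.2% of the 475 miRNAs.

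In the Huh7 pair 0 members were called higher in Huh7-C and 2 lower in TPM, where 2.98% and 17.1% of 772 miRNAs were called. With only the 431 miRNAs of at least 10 counts tested, 24 were called higher and 137 lower, again with 0 members higher and 2 lower. The called members were hsa-miR-532-3p, at a log2 fold-change of -2.08 (-3.24 to -1.06) and an adjusted p of 2.05e-05 in the exact Poisson test, and hsa-miR-502-3p, with -1.06 (-1.61 to -0.53) and an adjusted p of 1.23e-04 in the same exact test. By the miRNA-scaled level 1 member was called higher, hsa-miR-362-5p at 1.01 (0.74 to 1.27), and 1 lower, hsa-miR-532-3p at -1.57 (-2.73 to -0.55), where 6.99% and 9.59% of all miRNAs were called. Hsa-miR-502-3p was then at -0.54 (-1.09 to -0.01), under the threshold. With TMM library sizes 0 members were called higher and 1 lower, beside 4.92% and 11.7% of all miRNAs, and with DESeq2 size factors 1 and 1, beside 7.38% and 9.20%. Of the 10 members, 7 stood above the median of all miRNAs and 3 below. Those above included hsa-miR-660 and hsa-miR-362-3p, which were only 0.004 and 0.015 above the median. Hsa-miR-362-5p, 1.15 above the median, exceeded 84.7% of the 431 miRNAs.

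Hsa-miR-532-3p in the Huh7 pair was the call of a member that held with each of the 4 library sizes (log2 fold-changes of -2.08, -1.57, -1.77 and -1.51 with total reads, miRNA counts, TMM and DESeq2). In the Hep3B pair hsa-miR-502-3p was called lower with the last 3 of these, at -1.85, -1.50 and -1.27, but was at -0.09 (-0.76 to 0.57) in TPM. Hsa-miR-660 missed the threshold in both pairs, with log2 fold-changes in TPM of 0.93 (0.51 to 1.37) in the Hep3B pair and -0.66 (-1.04 to -0.28) in the Huh7 pair. On the miRNA scale these were -0.83 and -0.14. Hsa-miR-500a*, outside the 10, had log2 fold-changes in TPM of 0.86 (0.64 to 1.08) and -0.33 (-0.57 to -0.10), beside 0.75 and -0.11 for the summed members.

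**Figure D4:**
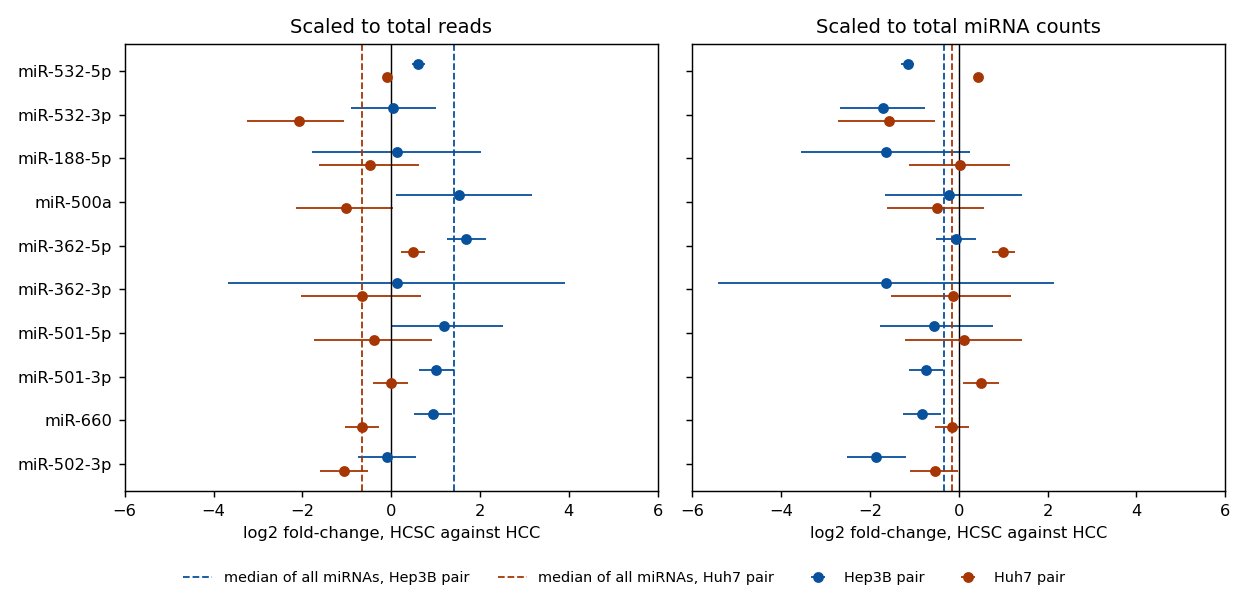
Log2 fold-change of HCSC against HCC for each member, in TPM (left) and on the miRNA scale (right), with bars for the 95% counting interval and dashed lines at the median of all miRNAs of each pair. The Hep3B pair moves from mostly right of 0 (9 of 10 members) to left of 0 in all 10, while the place of a member relative to its dashed line stays as it was. Of the 475 miRNAs behind the median of that pair, 88.2% lay right of 0 in TPM and 40.6% on the miRNA scale.

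With both lines in 1 fit as replicates of a state, edgeR's quasi-likelihood test with the parent line as a block called 0 of 443 miRNAs (0.00%) at an adjusted p of 0.05. At an unadjusted p under 0.05 it had 31, and DESeq2 called 5. Of the 9 members in this fit 0 were called by either tool and 0 had an unadjusted p under 0.05. The lowest adjusted p of a member from edgeR was 0.584, that of hsa-miR-532-3p (log2 fold-change -1.33). Hsa-miR-502-3p was at -0.89 and hsa-miR-362-5p at 0.77, with adjusted p from edgeR of 0.595 and 0.653. Fits that left out 1 library and the block gave other values. Hsa-miR-362-5p was at -0.18 without Huh7-C and 1.58 without Huh7, and hsa-miR-502-3p at -0.28 without Hep3B-C and -1.52 without Huh7-C. Without the block the difference between the lines also enters these values. A shift cannot then be put down to the left-out library alone. Hsa-miR-362-3p had too few counts for the fit with the block, which left 1 residual degree of freedom.

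Between the lines of HCC cells the direction again rested on the scaling, and between the HCSC lines it did not. In TPM 10 of 10 were higher in Huh7 than in Hep3B, with 9 counting intervals above 0. On the miRNA scale 3 were, with 0 intervals above 0 and 4 below. The share of all miRNAs that were higher was not computed, here or for the HCSC lines below. These counts of members are therefore not read as a trait of the cluster. Over the 476 miRNAs of at least 10 counts in either library, the median log2 difference was itself 1.59 in TPM and -0.79 on the miRNA scale. The summed members were at 1.98 and -0.40. Between the HCSC lines 7 of 10 were higher in Huh7-C than in Hep3B-C on both scales, with 5 intervals above 0 and 0 below. The median log2 difference over the members there was 0.44 in TPM and 0.34 on the miRNA scale. The summed members were at 1.12 and 1.01. Over all miRNAs of at least 10 counts in either HCSC library, the median log2 difference was -0.82 in TPM and -0.92 on the miRNA scale. Between the HCSC lines the summed members were thus opposite in sign to the median of all miRNAs on both scales. This was not particular to them, since the other chromosome X clusters read below had the same sign.

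The pattern of the summed members over the 4 libraries was closest to that of hsa-miR-222 among 128 other miRNAs with at least 100 counts in every library. Hsa-miR-222 had 313 counts in Hep3B and 443 in its HCSCs, against 669 in Huh7 and 583 in its HCSCs, at a Euclidean distance of 0.24 in centred log2 TPM, where the median distance was 1.90. The next were hsa-miR-126 (0.33), hsa-miR-148b* (0.48), hsa-miR-192 (0.52) and hsa-miR-941 (0.54). Hsa-miR-192 is also a hepatocyte marker of the list above. The distance does not depend on library size, and it is a description over 4 libraries.

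Other clusters of chromosome X were set beside it. The miR-221 and miR-222 cluster, which lies on the same chromosome arm, had log2 fold-changes in TPM of 0.80 (0.74 to 0.86) in the Hep3B pair and -0.07 (-0.13 to -0.02) in the Huh7 pair. The miR-106a to miR-363 cluster had 0.78 (0.41 to 1.15) and -0.14 (-0.39 to 0.11). The miR-424 cluster had 0.17 (0.05 to 0.29) and -0.12 (-0.23 to -0.01), so that in the Hep3B pair its interval lay below that of the summed members (0.63 to 0.87), while in the Huh7 pair the intervals overlap. Against the first 2 clusters the intervals of the summed members overlap in both pairs. These directions turn with miRNA scaling as those of the summed members do. Relative to the median of all miRNAs the 3 clusters stood at -0.63, -0.65 and -1.25 in the Hep3B pair, and at 0.59, 0.53 and 0.54 in the Huh7 pair, beside -0.67 and 0.55 for the summed members. In the same order, all 3 were also higher in Huh7-C than in Hep3B-C, at 470 against 392, 23.9 against 10.6 and 132 against 78.8 TPM. On the miRNA scale these levels were 1245 against 1115, 63.3 against 30.2 and 349 against 224.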

How the data were processed

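Small RNA libraries of the hepatoma lines Hep3B and Huh7 and of the HCSCs derived from them were analysed, 1 library per group. MiRNAs were identified by the authors against miRBase release 17, from reads of 18 nt or more that SOAP had placed on NCBI Build 36.1 and that belonged to no other class of small RNA. The mismatch setting is not given in the sources used here, and it bears on how reads of near-identical miRNAs were shared out. The deposited values are raw read counts of 1733 mature miRNAs per library, with no normalization.

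TPM was computed as counts per 1000000 total reads, with the total reads the study gives for each library. A single read equalled between 0.0596 and 0.0941 TPM, and 3 counts, the floor of the depth, equalled 0.179 to 0.282 TPM. Intervals are 95% intervals: exact Poisson for levels, Clopper-Pearson for shares, and the exact binomial distribution of the counts given their sum for log2 fold-changes. Intervals of odds ratios are exact conditional ones. All cover counting error only, since reads are not independent molecules.

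Within a pair, HCSCs were set against their parent line with Audic and Claverie's exact Poisson test (2-sided), over every miRNA with at least 1 count in either library, with Benjamini-Hochberg adjustment over all of them. A miRNA was called where its log2 fold-change was 1 or more in size and its adjusted p 0.01 or less, with a TPM of 0 set to 0.001. Medians over all miRNAs used those reaching 10 counts in a library of the pair, and 0.5 added to each count. Both lines were fitted together with edgeR's quasi-likelihood test (TMM, parent line as a block, at least 10 counts in at least 2 libraries, adjusted p of at most 0.05). The alternatives were other library sizes, thresholds, filters, a pseudocount of 1 TPM, DESeq2, other make-ups of the pool and leaving out each library in turn. The named miRNAs were all 10 members, the other mature miRNAs of the same hairpins, 3 other clusters of chromosome X, and the 5 miRNAs of at least 100 counts in every library whose centred log2 TPM lay nearest to that of the summed members. The members and lists were chosen with earlier results of these data known, and the shares within the cluster and within hairpins were taken up after the counts were seen. Sequences and positions are RefSeq's (GRCh38.p14), matched by name for 9 of the 10 members, and the host gene is that of GENCODE release 29. The mRNA libraries were not analysed here. Computations used Python 3.11.15 with scipy 1.17.1, R 4.3.3, DESeq2 1.42.0 and edgeR 4.0.16.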

Additional observations from a re-analysis of the deposited data

Results flagged for a closer look

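Summed over the 10 members, the log2 fold-change in TPM was 0.75 for Hep3B-C over Hep3B and -0.11 for Huh7-C over Huh7, in opposite directions and with both counting intervals clear of 0. Scaled to total miRNA counts both directions turned, to -1.01 and 0.41. Hsa-miR-660 was at 0.93 and -0.66 in TPM in the same order of pairs, again with both intervals clear of 0, and at -0.83 and -0.14 with total miRNA counts. The difference between the pairs was not tested, since each rests on 1 library per group.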

How the results depend on the processing

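The library size moved most results. For the summed members, the log2 fold-change of 0.75 in the Hep3B pair became -1.01 with total miRNA counts, -0.67 with TMM and -0.43 with DESeq2 size factors, and the -0.11 of the Huh7 pair became 0.41, 0.20 and 0.46. Without hsa-miR-532-5p the Hep3B value was 1.004, and the median of the 10 members was -0.57 in the Huh7 pair. The 2 members called higher in the Hep3B pair became 0 with each of these library sizes, 4 with a 2-fold change alone and 1 with 1 TPM added, and the 0 called lower became 3, 2 and 1 with total miRNA counts, TMM and DESeq2. In the Huh7 pair the 0 called higher became 1 with total miRNA counts and with DESeq2, and the 2 called lower became 1 with each of the 3 library sizes and with 1 TPM added.

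In the Hep3B pair 9 of the 10 members lay above 0 in TPM, 0 with total miRNA counts, 2 with TMM and 3 with DESeq2 size factors. Of the 475 miRNAs of at least 10 counts, 88.2%, 40.6%, 51.2% and 60.4% lay above 0 in the same order. The members that turned direction and were called before or after the change were hsa-miR-532-5p (-1.15 with total miRNA counts), hsa-miR-532-3p (-1.71, and -1.36 with TMM), hsa-miR-362-5p (-0.074 with total miRNA counts) and hsa-miR-501-3p (-0.74, -0.40 with TMM and -0.16 with DESeq2 size factors). Of all 834 miRNAs, 275 were called higher and 21 lower in Hep3B-C in TPM, against 44 and 112 with total miRNA counts, 71 and 76 with TMM, and 92 and 59 with DESeq2 size factors. Of 772 in Huh7-C these were 23 and 132, against 54 and 74, 38 and 90, and 57 and 71. A 2-fold change alone gave 536 higher and 98 lower for Hep3B-C, and 112 higher and 322 lower for Huh7-C.

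Over both lines, edgeR called 0 miRNAs, and DESeq2 5, none of them a member. EdgeR also called 0 with total reads, without the count filter, without the parent line block and with each library left out, where the lone library of a state is assumed to vary like the others. The parent line block is the paired analysis of this design, and leaving it out changed no call. With 1 residual degree of freedom with the block and 2 without it, these fits could call little. The unchanged 0 therefore does not show whether the pairing matters. Depth limits the members of few reads: hsa-miR-500a, with 6 and 16 counts in the Hep3B pair, had a log2 fold-change of 1.54 and was not called (adjusted exact p = 0.0669).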
